A study of Homo sapiens with 36 samples.

Results

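Metallothioneins are small cysteine-rich proteins that bind zinc and copper, and their genes are a standard readout of free zinc, metal load and glucocorticoid or oxidative stress. Zinc entering the cell is sensed by MTF1, a zinc-finger transcription factor that moves onto metal response elements (MREs) in the promoters of its targets. Those targets include the metallothionein genes and SLC30A1, which encodes the zinc exporter ZnT1 of the plasma membrane. The genes described here were 8 rows of the deposited count tables, of 54583 rows in each table. They were the metallothionein genes MT1E, MT1F, MT1G, MT1M, MT1X and MT2A, the factor gene MTF1 and the exporter gene SLC30A1, taken by symbol, and all 8 were found in every table. The choice was by name and used no measured value, though earlier results of these data were known when the genes were proposed.

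The libraries were polyA RNA-seq of MDA-MB-231, an established human triple-negative breast cancer line cultured in RPMI-1640 plus fetal bovine serum, 36 in all and in 3 sets of 12. Each set held 4 groups of 3 libraries. The combination was SHP1705 at 10 µM, a compound that stabilizes the clock repressor cryptochrome, together with a proteasome inhibitor. The other groups were the inhibitor alone, SHP1705 alone at 10 µM, and DMSO, the solvent. The MG132 set used MG132, a reversible peptide aldehyde inhibitor, at 100 nM for 8 h, and the carfilzomib sets used carfilzomib, an irreversible epoxyketone inhibitor, at 10 nM for 8 h or for 24 h. The design asks what each drug does to transcripts alone and what changes when both are given. The line is the only cell model, and the labels do not say whether the 3 libraries of a group came from separate cultures, so a p-value here reflects how far these libraries spread, and that spread may be technical.

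On GRCh38 (GENCODE release 29) the 6 metallothionein genes lie together on the long arm of chromosome 16. From one end of the cluster to the other they are MT2A (56608199 to 56609497), MT1E (56625475 to 56627112), MT1M (56632233 to 56633986), MT1F (56657694 to 56660698), MT1G (56666731 to 56668065, the only one on the minus strand) and MT1X (56682424 to 56684196). MTF1 (37809567 to 37859620) and SLC30A1 (211571568 to 211578742) are on the minus strand of chromosome 1. RefSeq's promoter table for GRCh38.p14, which gives 250 bases before and 50 after each gene's start, had entries for 4 of the 8 genes, MT1X, MT2A, SLC30A1 and MTF1. The 250 bases before the start of MT2A, MT1X and SLC30A1 by RefSeq are shown, since these are the textbook MTF1 targets among the 4, and they moved differently from each other in the results. RefSeq's starts differ from those of GENCODE above, so that the stretch shown for MT2A lies inside the GENCODE gene, that for MT1X overlaps it, and that for SLC30A1 begins beyond its end. Capitals mark matches to the MRE core, TGCGCNC or TGCACNC on either strand.
MT2A, chr16:56608334-56608583, plus strand: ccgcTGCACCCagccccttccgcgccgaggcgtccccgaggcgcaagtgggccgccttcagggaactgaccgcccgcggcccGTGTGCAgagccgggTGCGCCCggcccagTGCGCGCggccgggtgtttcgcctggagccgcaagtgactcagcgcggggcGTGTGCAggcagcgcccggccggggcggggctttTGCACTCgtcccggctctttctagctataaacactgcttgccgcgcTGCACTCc
MT1X, chr16:56682220-56682469, plus strand: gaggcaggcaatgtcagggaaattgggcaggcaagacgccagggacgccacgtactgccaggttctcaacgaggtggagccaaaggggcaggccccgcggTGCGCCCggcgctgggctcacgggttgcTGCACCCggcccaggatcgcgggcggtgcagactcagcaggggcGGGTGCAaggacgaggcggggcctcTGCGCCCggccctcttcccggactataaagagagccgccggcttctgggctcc
SLC30A1, chr1:211579162-211579411, minus strand: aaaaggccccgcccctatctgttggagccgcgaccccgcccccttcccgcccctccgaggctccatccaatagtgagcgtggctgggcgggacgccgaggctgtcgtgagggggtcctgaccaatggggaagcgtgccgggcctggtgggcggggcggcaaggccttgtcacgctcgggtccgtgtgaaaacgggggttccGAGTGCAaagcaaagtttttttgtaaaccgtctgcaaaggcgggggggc
Over the whole window of 300 bases, MT2A held 8 matches (7 of them before the start), MT1X 4 (all before the start), SLC30A1 2 (1 on each side of the start) and MTF1 0. At least 1 match was present in 29.6% of the 35116 promoters of the table, and 4 or more in 0.601%. MT2A, MT1X and SLC30A1 each held 1 match to the antioxidant response core TGACNNNGC, which 13.3% of all promoters hold. None of the 4 windows held the E-box CACGTG (7.26% of all promoters) or the heat shock element, taken as 3 alternating GAA and TTC units 2 bases apart (0.49%). All motifs were searched on both strands, and no match to one motif overlapped a match to another. A match is a run of letters and not a measured binding site.

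The levels of the 8 genes spanned over 3 orders of magnitude. Per kilobase of annotated exon, DMSO libraries of the MG132 set held 159 ± 6.99 CPM per kb of MT2A (CPM is a gene's count relative to the scaled size of its library; SD, n = 3) and 88.0 ± 3.90 of MT1E. SLC30A1 followed with 21.0 ± 0.0859 CPM per kb, MT1X with 8.44 ± 0.550, MTF1 with 2.68 ± 0.185 and MT1F with 1.43 ± 0.190. MT1M (0.267 ± 0.0759 CPM per kb) and MT1G (0.107 ± 0.0607) were near the limit of detection. In DMSO libraries of the carfilzomib set at 24 h the order was the same except that MT1X (11.4 ± 1.04 CPM per kb) and SLC30A1 (11.2 ± 0.418) did not differ beyond their spread. MT2A and MT1E were the most abundant of the family in both sets. In the MG132 set 8 of 8 genes passed the filter on low counts. In both carfilzomib sets 6 of 8 passed: MT1G held 0 to 2 counts in every library of these sets and MT1M 0 to 9, at or near the floor of 3 counts, and neither was tested there.

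The metallothionein genes are close copies, and reads can fall on more than 1 of them. Of the 50-base words in the GENCODE transcripts, 18.3% of those of MT1X, 16.5% of MT1G, 9.87% of MT1M and 7.1% of MT1E also occur in another gene. The share was 3.02% for MT2A, 1.22% for MT1F, 0.64% for MTF1 and 0 for SLC30A1. At 100 bases only MT1X kept a shared part, 11.3%, all of it with the annotated gene AC026461.1. Values of MT1G and MT1M, at a few counts beside far more for MT1E and MT2A, are therefore uncertain, since the handling of shared reads is not given in the sources used here.

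Total counts per library were 34200000 to 39300000 (MG132 set), 17800000 to 27700000 (carfilzomib, 8 h) and 18900000 to 34000000 (carfilzomib, 24 h). The line's markers VIM, CD44, EGFR, AXL and CAV1 were high in all 36 libraries, and the hormone receptor genes ESR1 and PGR reached at most 0.444 CPM. EPCAM, listed as low in this line, was at 5.99 to 26.3 CPM. CDKN2A, a gene that this line has lost, was at 3.08, 6.85 and 7.58 CPM in combination libraries of the MG132 set, 0.578, 0.107 and 5.04 CPM with MG132, 0.0971, 0.761 and 0.751 CPM with SHP1705 and at most 0.0276 CPM in DMSO. In the carfilzomib set at 8 h CDKN2A was at 1.84 to 2.48 CPM in libraries labelled combination and at most 1.98 CPM under the other labels. At 24 h it reached at most 0.441 CPM. Among hepatocyte and blood markers, ALB reached 4.56 CPM and HBA1 5.20 CPM in the carfilzomib set at 8 h. Their highest values were 0.224 and 0.801 CPM in the MG132 set, and 0.0416 and 0.654 CPM at 24 h. Other markers of these lists did not follow: in the set at 8 h FGB and TTR reached at most 0.215 and 0.0762 CPM. LYZ was highest at 24 h, at up to 6.42 CPM. Whether RNA of other cells or samples is present in these libraries was not tested. In the MG132 set a list of 10 fibroblast or stromal markers summed to 129 to 290 CPM in combination libraries, 18.1 to 210 with MG132, 17.8 to 55.8 with SHP1705 and 18.1 to 19.4 in DMSO. The periostin gene POSTN made up most of it, with up to 242 CPM, and 7 of the 10 markers exceeded 1 CPM in every combination library, against 3 of 10 in every DMSO library. Over the libraries of the set CDH2 ranged from 0.562 to 16.7 CPM, COL1A1 from 3.98 to 11.4 CPM, COL1A2 from 6.65 to 10.1 CPM, PDGFRB from 2.56 to 4.82 CPM and LUM from 0.629 to 1.68 CPM. Of the list, POSTN and CDKN2A were thus among the genes present, while DCN (at most 0.171 CPM) and COL3A1 (at most 1.04 CPM) were near 0, as was THY1 (at most 0.0902 CPM). HSPA1A, the stress-induced HSP70 gene, was at 38927 to 40611 CPM in combination libraries of that set and at most at 926 CPM in its other libraries. The part of the stromal markers or of this stress response in the results was not tested, beyond the values given beside them. In these bulk samples fewer cells of a type and less RNA per cell cannot be told apart. In the carfilzomib set at 8 h the readouts went against the labels, and its results are given last, by label.

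**Figure D1:**
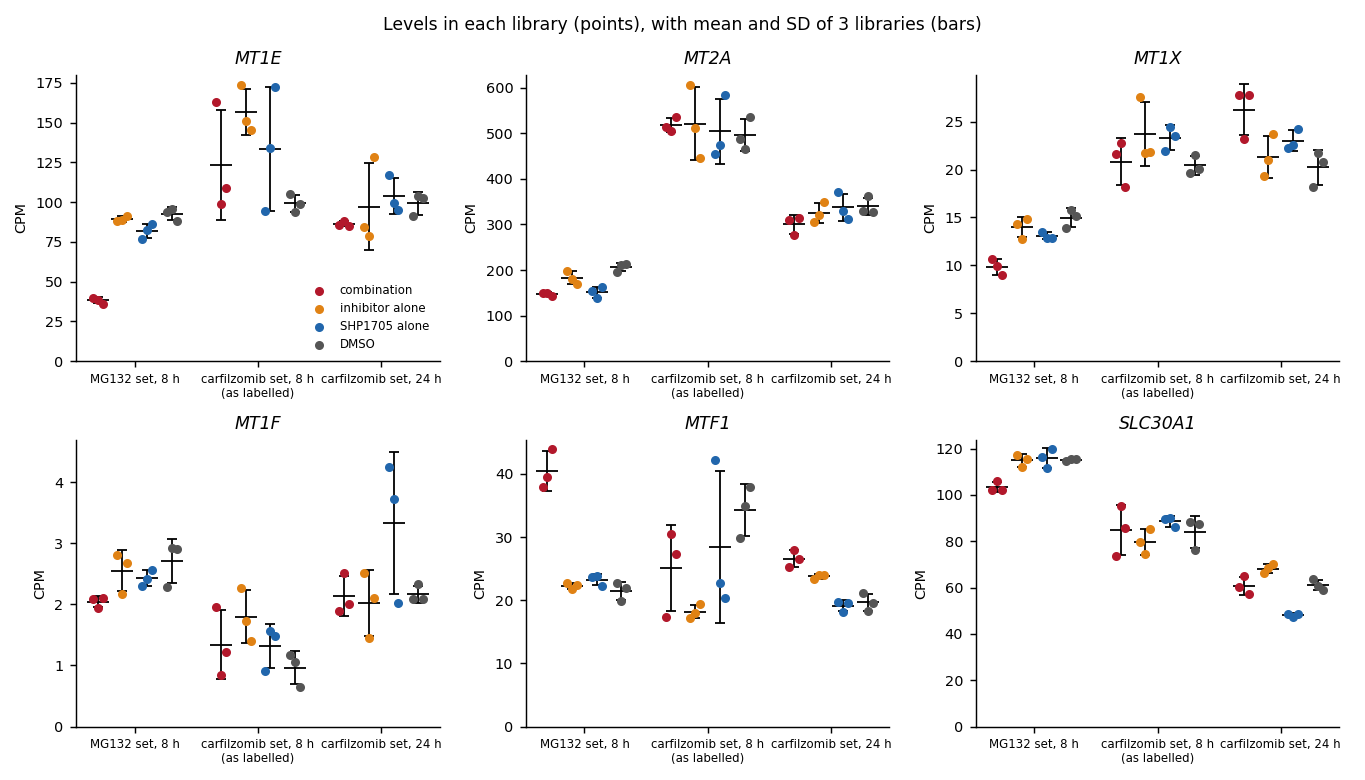
Level of 6 of the 8 genes in each library (y axis, CPM, linear scale from 0; points), with the mean and SD of 3 libraries (bars), for combination, inhibitor alone, SHP1705 alone and DMSO in the MG132 set at 8 h, the carfilzomib set at 8 h as labelled and the carfilzomib set at 24 h. In the MG132 set the combination libraries sit at 36.2 to 40.0 CPM for MT1E and 37.9 to 44.0 CPM for MTF1, apart from every other library of that set; levels are not comparable between sets, whose tables are separate.

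In the MG132 set the combination lowered the main metallothionein transcripts and raised that of their activator MTF1. MT1E, the second most abundant metallothionein here, was at 40.0, 38.7 and 36.2 CPM in combination libraries, 88.0, 88.7 and 91.5 CPM with MG132 alone and 94.0, 95.8 and 88.0 CPM in DMSO. The combination libraries were below every other library of the set. The log2 fold change of combination against DMSO was -1.27 ± 0.05 (SE, adjusted p = 2.8e-14, by the quasi-likelihood test of edgeR, with the Benjamini-Hochberg method over 16591 genes). MT1X was at 10.6, 9.92 and 8.96 CPM in combination libraries and at 13.9, 15.8 and 15.2 CPM in DMSO. These groups did not overlap, and MT1X fell by 0.61 ± 0.08 on the log2 scale (adjusted p = 1.9e-06, edgeR). MT2A, the most abundant of the family, was at 150, 149 and 142 CPM in combination libraries and at 197, 211 and 213 CPM in DMSO, again without overlap. Its log2 fold change was -0.49 ± 0.06 (adjusted p = 2.0e-07, edgeR). MT1F, a low-level copy, had 2.08, 1.94 and 2.10 CPM in combination libraries and 2.29, 2.93 and 2.90 CPM in DMSO. Its log2 fold change of -0.40 ± 0.17 missed the threshold (adjusted p = 0.050, edgeR) and passed it without DMSO replicate 1 (-0.52, adjusted p = 0.024).

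MTF1, the zinc sensor itself, moved the other way. Its transcript was at 37.9, 39.5 and 44.0 CPM in combination libraries, against 22.7, 19.9 and 21.9 CPM in DMSO, with all other libraries of the set between 19.9 and 23.8 CPM. The log2 fold change was 0.91 ± 0.06 (adjusted p = 1.1e-10, edgeR). SLC30A1, the exporter that MTF1 induces when zinc is high, was at 102, 106 and 102 CPM in combination libraries and at 115, 115 and 116 CPM in DMSO. The groups did not overlap and the fall was small, -0.16 ± 0.03 on the log2 scale (adjusted p = 0.00071, edgeR). Of the 8 genes, 2 rose and 4 fell, with a median log2 fold change of -0.45, against 58.8% of all tested genes called in either direction (29.2% higher and 29.7% lower) and a median of -0.0083 over all of them. Since most genes were called in this contrast, the count of 6 in 8 is not a result about these genes. Without the 4 libraries outside the combination that held over 100 counts of POSTN, left out after the data were seen, MT1E (-1.28), MT1X (-0.62), MT2A (-0.50), SLC30A1 (-0.17) and MTF1 (0.90) were still called. Those 4 were MG132 and SHP1705 libraries, so both groups compared here were unchanged. That fit therefore cannot tell the combination from the POSTN signal.

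MT1G was the other gene called higher, at counts of 10, 20 and 24 in combination libraries, against 4, 4 and 1 in DMSO. MG132 libraries held 0, 9 and 24 counts and SHP1705 libraries 10, 5 and 0, so combination libraries lay above all of DMSO, and tied at 10 counts with 1 SHP1705 library. The log2 fold change of combination against DMSO was 2.78 ± 0.90 (adjusted p = 0.012, edgeR), and the call was lost with DESeq2 (adjusted p = 0.054) and without DMSO replicate 3 (2.38, adjusted p = 0.056). Only 5 of the 12 libraries, with all 3 of the combination among them, held 10 or more counts of MT1G, so the filter on low counts itself favoured a call in that direction. POSTN was at 98.3, 222 and 242 CPM in combination libraries, 33.6, 0.161 and 173 CPM with MG132, 0.267, 28.2 and 29.4 CPM with SHP1705 and 0.255, 0.110 and 0.111 CPM in DMSO. Every combination library was above every DMSO library for POSTN as for MT1G, so treatment and the POSTN signal cannot be told apart for MT1G in this contrast. MG132 replicate 3, which held 173 CPM of POSTN, had 24 counts of MT1G. Its MT1E (91.5 CPM) and MTF1 (22.4 CPM) were within the range of the other libraries outside the combination. MT1M had 4, 7 and 1 counts in combination libraries and 9, 12 and 7 in DMSO, groups that met at 7, and its log2 fold change of -0.94 ± 0.79 was not called (adjusted p = 0.32, edgeR).

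**Figure D2:**
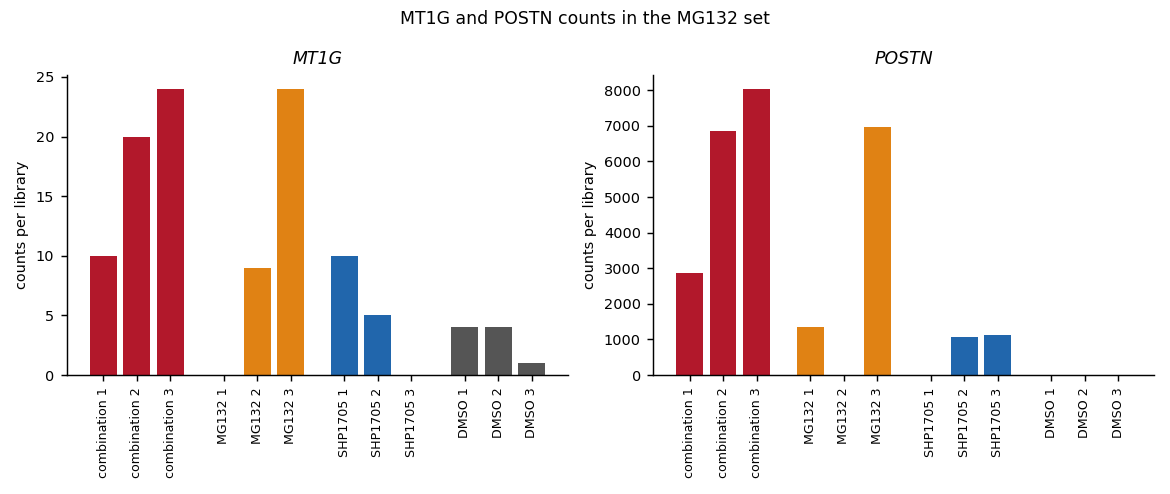
Counts per library (y axis, linear from 0) of MT1G and of POSTN in the 12 libraries of the MG132 set, ordered as combination, MG132, SHP1705 and DMSO. MT1G reaches 24 counts in combination replicate 3 and in MG132 replicate 3, and POSTN is highest, at 6865 to 8040 counts, in 3 libraries that include both of these.

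Against MG132 alone, the combination gave nearly the same picture. MT1E (-1.22 ± 0.05), MT1X (-0.51 ± 0.08), MT2A (-0.31 ± 0.06) and SLC30A1 (-0.15 ± 0.03) fell and MTF1 (0.86 ± 0.06) rose on the log2 scale, all with adjusted p under 0.05 by edgeR. That is 1 higher and 4 lower of 8 (57.2% of all genes were called, 28.2% higher and 28.9% lower), with a median of -0.32 over the 8 and -0.0035 over all genes. MT1G was not called (1.02 ± 0.74) unless MG132 replicate 3 was left out (2.24, adjusted p = 0.034). When the 4 libraries outside the combination with over 100 counts of POSTN were left out, only MG132 replicate 2 stayed in its group. SLC30A1 was then at -0.12.

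The interaction compares the combination with the sum of the separate SHP1705 and MG132 effects on the log2 scale. MT1E was lower than that sum by -1.05 ± 0.07 (adjusted p = 1.4e-10, edgeR) and MTF1 was higher by 0.75 ± 0.09 (adjusted p = 5.9e-07). MT1X (-0.32 ± 0.11, adjusted p = 0.022) and SLC30A1 (-0.16 ± 0.05, adjusted p = 0.0098) were also called lower, which makes 1 higher and 3 lower of 8 beside 48.9% of all genes (24.7% higher and 24.2% lower), with medians of -0.012 and -0.0053. MT2A was not called (0.14 ± 0.08, adjusted p = 0.15, 95% interval -0.014 to 0.29) unless MG132 replicate 1 was left out (0.19, adjusted p = 0.041). The MT1X call was lost without combination replicate 3, DMSO replicate 1 or MG132 replicate 3. Without the 4 libraries with POSTN, only SHP1705 replicate 1 and MG132 replicate 2 were left of their groups. MT1X was then at -0.24 and SLC30A1 at -0.14.

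SHP1705 alone at 8 h, read in the MG132 set, lowered MT2A and had a smaller effect on MT1E. MT2A was at 153, 138 and 162 CPM with SHP1705, against 197, 211 and 213 CPM in DMSO. The groups did not overlap, SHP1705 libraries lay as low as those of the combination, and the log2 fold change was -0.45 ± 0.05 (adjusted p = 7.2e-05, edgeR). MT1E was at 77.1, 82.5 and 86.0 CPM with SHP1705 and at 94.0, 95.8 and 88.0 CPM in DMSO, without overlap, though the nearest libraries were close. Its log2 fold change of -0.18 ± 0.05 (adjusted p = 0.022, edgeR) missed the threshold without DMSO replicate 1 or 2 and without SHP1705 replicate 1 or 2 (adjusted p of 0.059 to 0.116). Without the 4 libraries with POSTN, only SHP1705 replicate 1 was left of its group, and the log2 fold change of MT1E was -0.26. Of the 8 genes 0 rose and 2 fell, beside 7.53% of all genes called (3.45% higher and 4.08% lower), with medians of -0.17 and -0.0022. MTF1 (0.11, interval -0.0091 to 0.24) and SLC30A1 (0.0093, interval -0.058 to 0.077) did not pass the test.

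MG132 alone gave 0 calls among the 8 genes, and 0 among all 16591 (0%), by edgeR. At an unadjusted p under 0.05 there were 1 of the 8 and 1574 of all, and DESeq2 called 0 of the 8 and 75 of all. The 1 was MT2A, at 198, 181 and 170 CPM with MG132, against 197, 211 and 213 CPM in DMSO, with replicate 1 inside the DMSO range. Its log2 fold change was -0.18 ± 0.05 (adjusted p = 0.26, edgeR), and it was called when genes with low counts were kept in the fit (adjusted p = 0.00025). The median over the 8 genes was -0.065, against 0.0012 over all genes, and the intervals of MT1E (-0.14 to 0.038), MTF1 (-0.071 to 0.17) and SLC30A1 (-0.071 to 0.064) held 0.

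**Figure D3:**
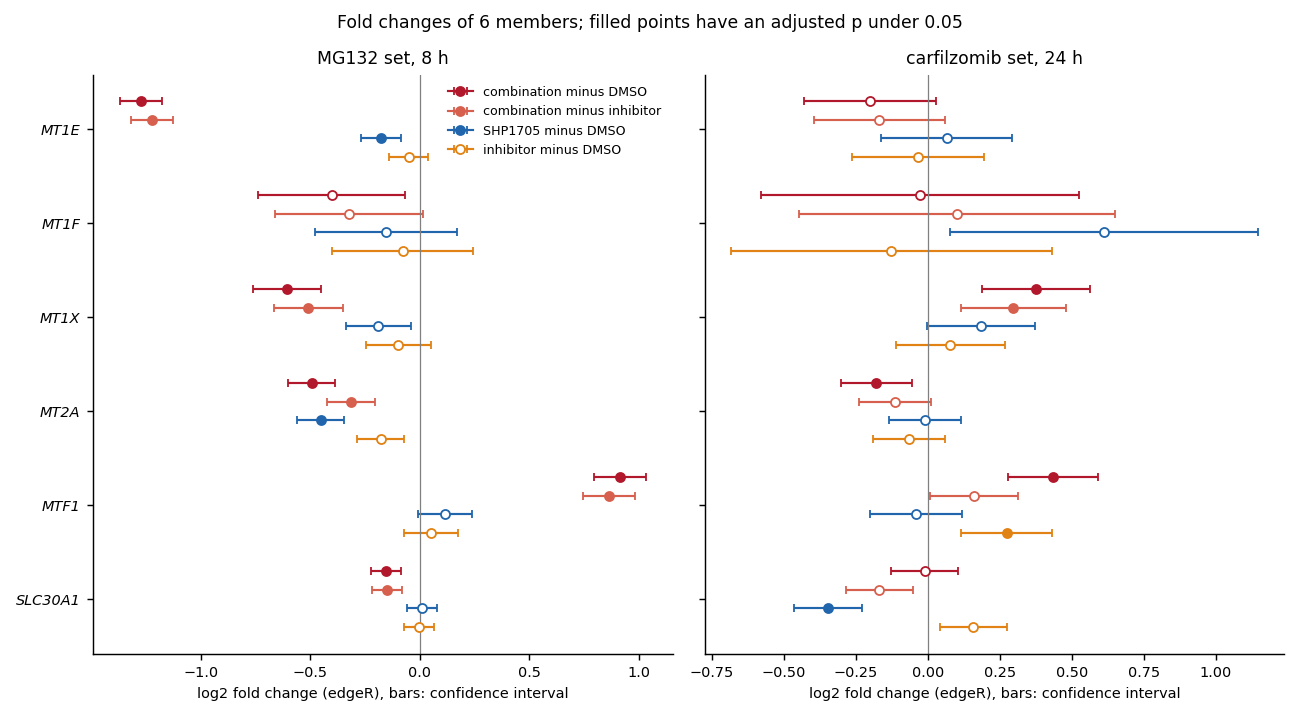
Log2 fold change of 6 of the 8 genes (x axis, edgeR) with its 95% interval (bars, 1.96 SE), for combination minus DMSO, combination minus inhibitor, SHP1705 minus DMSO and inhibitor minus DMSO in the MG132 set at 8 h and the carfilzomib set at 24 h; filled points have an adjusted p under 0.05. MT1E at -1.27 and MTF1 at 0.91 stand out in the MG132 set, and MT1X lies at -0.61 there and at 0.38 in the carfilzomib set at 24 h.

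In the carfilzomib set at 24 h the changes were smaller, and MT1X was higher, not lower, in the combination. MT1X was at 27.8, 23.2 and 27.8 CPM in combination libraries, against 18.2, 21.7 and 20.8 CPM in DMSO. All combination libraries were above all DMSO libraries, and the log2 fold change was 0.38 ± 0.10 (adjusted p = 0.0045, edgeR). MTF1 was at 25.2, 28.0 and 26.6 CPM in combination libraries and at 21.1, 18.4 and 19.6 CPM in DMSO. It rose by 0.43 ± 0.08 on the log2 scale (adjusted p = 0.00023, edgeR), without overlap. MT2A was at 310, 277 and 314 CPM in combination libraries and at 330, 361 and 328 CPM in DMSO. It fell by 0.18 ± 0.06 (adjusted p = 0.039, edgeR), a call that was lost without combination replicate 1 or 2 or DMSO replicate 1 or 2. MT1E was at 85.6, 88.1 and 85.3 CPM in combination libraries and at 91.1, 104 and 103 CPM in DMSO, groups that did not overlap, but its log2 fold change of -0.20 ± 0.12 was not called (adjusted p = 0.22, edgeR) unless only these 2 groups were fitted (adjusted p = 0.0038) or genes with low counts were kept (adjusted p = 0.011). SLC30A1 (-0.010 ± 0.06) and MT1F (-0.026 ± 0.28) were not called. Of the 6 genes tested 2 rose and 1 fell, beside 27.3% of all 16183 genes (13% higher and 14.3% lower), with medians of -0.018 and 0.0036.

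Carfilzomib alone at 24 h raised MTF1. MTF1 was at 23.4, 23.9 and 24.0 CPM with carfilzomib, against 21.1, 18.4 and 19.6 CPM in DMSO, and the carfilzomib libraries lay between those of DMSO and of the combination. The log2 fold change was 0.27 ± 0.08 (adjusted p = 0.016, edgeR), and the call was lost without DMSO replicate 2 (0.22, adjusted p = 0.11) or 3 (0.27, adjusted p = 0.051). SLC30A1 was at 66.2, 68.3 and 70.1 CPM with carfilzomib and at 63.6, 60.6 and 59.1 CPM in DMSO, without overlap, and its log2 fold change of 0.16 ± 0.06 missed the threshold (adjusted p = 0.060, edgeR). MT1E was at 84.6, 78.5 and 129 CPM with carfilzomib, so that replicate 3 was above all DMSO libraries and the other two below them. Without replicate 3, MT1E was called lower (-0.29, adjusted p = 0.0068, edgeR). Of the 6 genes 1 rose and 0 fell, beside 21.5% of all genes (10.1% higher and 11.4% lower), with medians of 0.022 and 0.0011. Combination against carfilzomib gave 1 call of 6, MT1X (0.30 ± 0.09, adjusted p = 0.049, edgeR), beside 9.02% of all genes (4.36% higher and 4.67% lower), with medians of -0.0067 and -0.0025. That call was lost without carfilzomib replicate 1 or 2 or combination replicate 1 or 3 (adjusted p of 0.091 to 0.19). The carfilzomib libraries, at 19.4, 21.0 and 23.7 CPM, overlapped those of the combination. SLC30A1 (-0.17 ± 0.06, adjusted p = 0.074, edgeR) was called only without combination replicate 2 (-0.22, adjusted p = 0.048).

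SHP1705 alone at 24 h lowered the exporter. SLC30A1 was at 48.5, 47.1 and 48.5 CPM with SHP1705, against 63.6, 60.6 and 59.1 CPM in DMSO, and was lower with SHP1705 than in any other library of the set. The log2 fold change was -0.35 ± 0.06 (adjusted p = 0.00077, edgeR). No metallothionein was called with it: MT2A stood at -0.011 (interval -0.14 to 0.11), MT1E at 0.065 (-0.16 to 0.29) and MT1X at 0.19 (-0.0023 to 0.37). MT1F was at 4.26, 3.73 and 2.02 CPM with SHP1705 and at 2.10, 2.33 and 2.08 CPM in DMSO, with replicate 3 below all of DMSO, and was not called (0.61 ± 0.27, adjusted p = 0.25, edgeR). Of the 6 genes 0 rose and 1 fell, beside 4.46% of all genes (1.95% higher and 2.51% lower), with medians of 0.027 and -0.00010. The interaction at 24 h had 0 calls of 6 by edgeR and by DESeq2, beside 0.482% of all genes (0.21% higher and 0.272% lower), with medians of 0.0041 and -0.0030. SLC30A1 was the 1 gene with an unadjusted p under 0.05 (0.18 ± 0.08, adjusted p = 0.35, edgeR).

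In the carfilzomib set at 8 h the libraries did not fall into their labelled groups, so every value names the label only. HSPA1A was at 892, 12020 and 15052 CPM in the libraries labelled combination. It was at 792, 726 and 896 CPM in those labelled carfilzomib, 19856, 705 and 693 CPM in those labelled SHP1705, and 14559, 23605 and 23242 CPM in those labelled DMSO. PER3, a clock gene that SHP1705 lowered in the other sets, also differed within every label between replicate 1 and the other two. No library was moved to another group.

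MTF1 was at 17.4, 30.4 and 27.4 CPM in the libraries labelled combination, 17.2, 18.0 and 19.3 CPM in those labelled carfilzomib, 42.3, 22.7 and 20.4 CPM in those labelled SHP1705 and 29.8, 34.9 and 38.0 CPM in those labelled DMSO. The 6 libraries with the highest HSPA1A were also the 6 with the highest MTF1. MT1E was at 163, 99.1 and 109 CPM in the libraries labelled combination, 173, 151 and 146 CPM in those labelled carfilzomib, 94.4, 134 and 172 CPM in those labelled SHP1705 and 105, 94.1 and 99.0 CPM in those labelled DMSO. The same 6 libraries were the 6 with the lowest MT1E, and also the 6 with the lowest MT1F, which held only 14 to 56 counts per library. For MT2A and MT1X 4 of those 6 were among the 6 lowest, and for SLC30A1 2 were, so their order followed that of HSPA1A less closely. The share of all genes that split the libraries in the same way was not counted. The split is therefore not shown to be particular to MTF1, MT1E and MT1F. The labels gave MT1E as higher (0.66 ± 0.21, adjusted p = 0.045) and MTF1 as lower (-0.91 ± 0.26, adjusted p = 0.040) in the libraries labelled carfilzomib than in those labelled DMSO by edgeR, 2 calls of 6 beside 23% of all 15577 genes (11.7% higher and 11.3% lower), with medians of 0.14 and 0.014. Both calls were lost with any 1 library labelled carfilzomib, or DMSO replicate 2 or 3, left out, and that of MT1E also without DMSO replicate 1. Both were kept without the first library of every label, left out after the data were seen (MT1E 0.62, adjusted p = 4.2e-05, and MTF1 -0.97, adjusted p = 4.5e-07, edgeR). In that fit 8421 of all genes were called.

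The other contrasts of this set had 0 calls of 6 genes and 0 of all genes (0%) by edgeR. At an unadjusted p under 0.05 SHP1705 against DMSO had 0 of 6 and 2244 of all genes, combination against DMSO 0 of 6 and 1454, combination against carfilzomib 0 of 6 and 898, and the interaction 1 of 6 and 3951. DESeq2 called 0 of 6 in each of them. Without the first library of every label, an alternative chosen after the data were seen, MT1E was called higher (0.67, adjusted p = 2.4e-05) and MTF1 lower (-0.76, adjusted p = 5.9e-06) in the libraries labelled SHP1705 than in those labelled DMSO. The libraries labelled combination then differed from those labelled carfilzomib in MT1E (-0.51, adjusted p = 0.00044) and MTF1 (0.63, adjusted p = 8.9e-05), and from those labelled DMSO in MTF1 (-0.33, adjusted p = 0.019). These contrasts called 7711, 5927 and 2822 of all genes, in that order, and the member calls are to be read against those counts. The libraries left out were those whose PER3 differed from the others of their label. That choice can itself narrow the spread within labels and so lower the adjusted p.

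**Figure D4:**
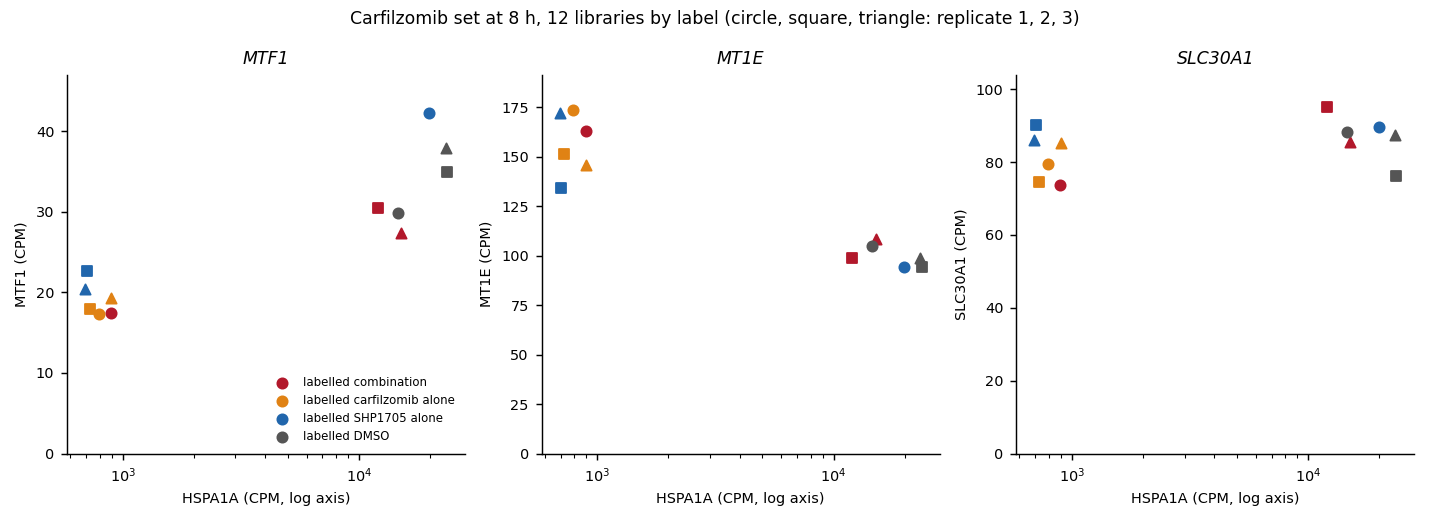
MTF1, MT1E and SLC30A1 (y axes, CPM, linear from 0) against HSPA1A (x axis, CPM, log axis) in the 12 libraries of the carfilzomib set at 8 h, coloured by label, with circle, square and triangle for replicates 1, 2 and 3. The 6 libraries with the highest HSPA1A, which carry 3 different labels, are the 6 with the highest MTF1 and the 6 with the lowest MT1E, but only 4 of the 6 with the highest SLC30A1. The share of all genes that split the libraries in this way was not counted.

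Differences between sets were tested in 1 fit of all 36 libraries, as differences of contrasts within a set. The SHP1705 effect at 24 h minus that in the MG132 set at 8 h gave 0 calls of 7 tested genes (edgeR, beside 0.023% of all 17389 genes, 0.00575% higher and 0.0173% lower; medians 0.24 and -0.00095), with 4 of 7 at an unadjusted p under 0.05 and 0 by DESeq2. The estimates were 0.44 ± 0.14 for MT2A (adjusted p = 0.75) and -0.36 ± 0.10 for SLC30A1 (adjusted p = 0.59), and PER3 missed too (-2.74 ± 0.71, adjusted p = 0.59), so this fit, whose spread includes the carfilzomib set at 8 h, was insensitive. Without the libraries of that set, left out after the data were seen, the fit of 24 libraries called both MT2A (0.44 ± 0.09, adjusted p = 0.011) and SLC30A1 (-0.36 ± 0.06, adjusted p = 0.0023), 2 of 8 genes beside 1.2% of all 17793 (0.483% higher and 0.719% lower; medians 0.31 and -0.0017). PER3 was at -2.74 ± 0.20 in it (adjusted p = 1.2e-10). The sets differ in time and come in separate tables, and the labels do not say whether they were run together. Effects of time and of set cannot be told apart. The SHP1705 effect in the carfilzomib set at 8 h as labelled minus that in the MG132 set gave 0 of 7 (0% of all genes; medians 0.45 and 0.016), with 3 of 7 at an unadjusted p under 0.05 and 1, MT2A, by DESeq2 (0.47, adjusted p = 0.043). The combination effect at 24 h minus that at 8 h as labelled gave 1 of 7, MTF1 at 0.90 ± 0.24 (adjusted p = 0.0081, edgeR), beside 20.4% of all genes (9.72% higher and 10.7% lower), with medians of -0.23 and -0.018. That value rests on the labels of the carfilzomib set at 8 h. MT1G was among the 7 but had at most 2 counts in any library of the carfilzomib sets, so its estimates there carry no information.

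Other zinc and copper genes moved in both directions, in numbers to be read against the share of all genes called. In the MG132 set, where 58.8% of all genes were called (29.2% higher and 29.7% lower), the combination against DMSO raised 2 and lowered 3 of 6 tested zinc exporters of the SLC30 family (median 0.013), among them SLC30A7 (0.47 ± 0.08), which loads zinc into the secretory pathway, SLC30A9 (-0.20 ± 0.04) and SLC30A4 (-0.51 ± 0.13). Of 11 tested zinc importers of the SLC39 family 4 rose and 7 fell (median -0.30), with SLC39A14, a zinc and iron importer, at 0.95 ± 0.03, SLC39A1 at -0.39 ± 0.03 and SLC39A3 at -0.47 ± 0.05. Of 8 copper genes 3 rose and 2 fell (median 0.067), with SOD1, the copper-zinc superoxide dismutase, at 0.96 ± 0.04, the copper importer SLC31A1 at 0.46 ± 0.04 and the copper exporter ATP7B at -0.57 ± 0.17. Of 5 glucocorticoid targets 1 rose, DUSP1 at 2.03 ± 0.06, and 2 fell, FKBP5 at -0.34 ± 0.04 and PER1 at -0.51 ± 0.20. Of the 11 further metallothionein genes and pseudogenes in the tables only MT1A passed the filter, and it was called in no comparison. HMOX1, the haem oxygenase gene and a marker of oxidative stress, was at 84.7 to 95.0 CPM in combination libraries and at 12.3 to 13.2 CPM in DMSO (2.83 ± 0.06).

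With SHP1705 alone in the MG132 set (7.53% of all genes called) the lists gave 0 of 6 exporters, 0 of 11 importers, SOD1 (-0.18 ± 0.04) among copper genes and PER1 (-0.89 ± 0.20), also a clock gene, among glucocorticoid targets. MG132 alone gave 0 calls in these lists. At 24 h SHP1705 (4.46% of all genes called) lowered 1 of 12 importers, SLC39A4 (-0.38 ± 0.10), the zinc importer best known from the gut, together with PER1 (-2.65 ± 0.21) and FKBP5 (-0.42 ± 0.06). Carfilzomib alone (21.5% of all genes called) raised the exporter SLC30A6 (0.28 ± 0.08) and the importer SLC39A6 (0.18 ± 0.06) and lowered SLC39A13 (-0.27 ± 0.06) and SLC39A7 (-0.14 ± 0.04), and of 8 copper genes SOD1 rose (0.63 ± 0.04) and ATP7B fell (-0.67 ± 0.22). In the combination at 24 h (27.3% of all genes called) 0 of 6 exporters were called, 2 importers rose and 3 fell, among them SLC39A7 (-0.15 ± 0.04) and SLC39A4 (-0.34 ± 0.10), and SOD1 (0.87 ± 0.04) and its copper chaperone CCS (0.20 ± 0.07) rose. Against carfilzomib alone (9.02% of all genes called) the combination showed SOD1 at 0.24 ± 0.04, the vesicular copper transporter gene SLC31A2 at 1.55 ± 0.41 and SLC39A10, a zinc importer, at -0.27 ± 0.07. Of 5 glucocorticoid targets at 24 h carfilzomib alone raised 1, DUSP1 (0.67 ± 0.09). The combination against DMSO raised 1, DUSP1 (1.09 ± 0.09), and lowered 3, among them PER1 (-2.52 ± 0.20) and FKBP5 (-0.40 ± 0.06). Against carfilzomib alone it raised DUSP1 (0.42 ± 0.09) and lowered PER1 (-2.77 ± 0.20) and FKBP5 (-0.42 ± 0.06).

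The genes whose levels ran most closely with each member were found by Pearson's r of log2 CPM, centred within a set, over 36 libraries and 10733 genes with a mean of at least 5 CPM. The libraries share sets and treatments, so r is a description. MT1E had RAB38 (0.938), PSRC1 (0.932) and STAMBPL1 (0.93), and MTF1 had RB1CC1 (0.973), HSPA13 (0.967) and ITSN2 (0.966), while MT1E and MTF1 themselves stood at -0.883. The closest values were lower for SLC30A1, with CIPC (0.861), HERC3 (0.821) and the zinc importer gene SLC39A8 (0.817), for MT1X, with SLC25A12 (0.766), and for MT2A, with POLR2L (0.764). Within the family r was 0.665 for MT1E and MT1X, 0.617 for MT1E and MT2A and 0.449 for MT1X and MT2A, and SLC30A1 had 0.025 to 0.077 with these 3 genes.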

How the data were processed

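Gene-level read counts of 36 libraries in 3 tables were used as deposited by the authors. Per the submitters' processing notes, Trimmomatic, FastQC, HISAT2, featureCounts and hg38 were used; their versions, the strand setting, the annotation and the handling of shared reads are not stated there. Each table of 12 libraries was fitted by itself with edgeR 4.0.16 (R 4.3.3): TMM scaling, filterByExpr (count minimum 10, total 15), and the quasi-likelihood test over 4 groups, with Benjamini-Hochberg adjustment over all genes tested and a threshold of 0.05. The SE was taken from the fold change and the F statistic, and 95% intervals are 1.96 SE to either side. CPM use the TMM-scaled library size, and the floor of 3 counts covers counting error only. Depth is 17800000 to 39300000 counts. Differences between sets came from 1 fit of 36 libraries.

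The members and lists were chosen with earlier results of these data known. Within a list, the genes named are up to 3 called genes with the smallest adjusted p; like genes are the 3 with the highest r of log2(CPM + 0.5). Promoters were matched by symbol to RefSeq, and shared sequence was counted in GENCODE transcripts. Replicates were compared by chi-square over genes, and 0 of 36 pairs were identical. Alternatives were RLE scaling, no filter, DESeq2 1.42.0, a replicate block, only the groups compared, leaving out each library, and 4 choices of libraries left out after the data were seen. The edgeR fit of each set was also run on simulated counts, and the outcome is not given here. The simulation drew all libraries of a group from the same means. It therefore does not cover libraries that differ within a label, as in the carfilzomib set at 8 h.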

Additional observations from a re-analysis of the deposited data

Results flagged for a closer look

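MTF1 responded differently to the combination in the carfilzomib sets at 24 h and at 8 h as labelled, by the test of the difference itself (0.90 ± 0.24 on the log2 scale, 24 h minus 8 h, adjusted p = 0.0081, edgeR's quasi-likelihood test over all 36 libraries). The libraries of the set at 8 h went against their labels.

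MT1X moved in opposite directions with SHP1705 against DMSO, with a log2 fold change of -0.19 in the MG132 set at 8 h, 0.19 in the carfilzomib set at 8 h as labelled and 0.19 in the carfilzomib set at 24 h. None of the 3 values was called by itself. The difference from the MG132 set was 0.36 ± 0.15 at 8 h (adjusted p = 0.20, edgeR) and 0.37 ± 0.15 at 24 h (adjusted p = 0.996; 0.18 without the libraries of the carfilzomib set at 8 h), so it was not called either.

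With the combination against DMSO, every MT1X value was lower than DMSO in the MG132 set at 8 h (-0.61) and higher in the carfilzomib set at 24 h (0.38), and both were called. The difference between these sets, which differ in inhibitor and in time, was not tested.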

How the results depend on the processing

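Over 1616 fold changes of the 8 genes under the alternatives, 1473 kept their direction and their side of the threshold, 64 called in neither fit changed sign, 37 lost the call, 42 gained it and 0 called values changed sign, while 12 adjusted p of DESeq2 were not available. Counts of calls moved by over 1.5 times as follows, and the cause was not tested. Among all genes, MG132 against DMSO (0 by edgeR) had 303 calls with no filter (1 member), 75 with DESeq2, 22 with only the groups compared, 3 with the replicate block and 0 to 67 without 1 library. SHP1705 against DMSO in the MG132 set (1249) had 150 without the 4 libraries with POSTN (1 member) and 619 to 892 without 1 library (1 to 2 members), and the interaction there kept 2 of 4 member calls without those 4 libraries.

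In the carfilzomib set at 8 h, SHP1705 against DMSO (0) had 1050 calls with no filter, 7 with DESeq2, 7711 without the first library of every label (2 members) and 0 to 3662 without 1 library (0 to 2 members). Carfilzomib against DMSO (3587, 2 members) had 0 with the replicate block (0 members), 6719 with only the groups compared, 8421 without the first libraries and 0 to 3115 without 1 library (0 to 1 members). Combination against DMSO (0) had 688 with no filter, 1 with DESeq2, 2 with only the groups compared and 2822 without the first libraries (1 member). Combination against carfilzomib (0) had 502, 1 with DESeq2, 5927 without the first libraries (2 members) and 0 to 2 without 1 library. The interaction (0) had 2337 with no filter (2 members), 341 with DESeq2, 8811 without the first libraries (3 members) and 0 to 5093 without 1 library (0 to 2 members).

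At 24 h, SHP1705 against DMSO (722) had 1171 with only the groups compared and 419 to 687 without 1 library, combination against carfilzomib (1460) had 913 (0 members) and 869 to 1852 (0 to 2 members), carfilzomib against DMSO had 0 to 2 members, and the interaction (78) had 364 with no filter, 346 with DESeq2 and 20 to 477 without 1 library. For the SHP1705 difference of 24 h minus the MG132 set (4) the counts were 50 with no filter, 14 with DESeq2, 2 with the replicate block, 214 without all libraries of the carfilzomib set at 8 h (2 members, MT2A and SLC30A1), 26 without the doubted libraries (those with POSTN and the first ones at 8 h) and 2 to 5 without 1 library. For that of 8 h minus the MG132 set (0) they were 1309 with no filter (2 members), 370 with DESeq2 (1 member), 5318 without the doubted libraries (3 members) and 0 to 4629 without 1 library (0 to 4 members). For the combination difference of 24 h minus 8 h (3542, 1 member) there were 2 members with no filter, 2 without the doubted libraries, and 2126 to 4225 calls without 1 library (1 to 3 members). Without the doubted libraries only replicate 1 of SHP1705 was left in the MG132 set, and both SHP1705 differences then rest on it.

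After each group's mean was subtracted, same-numbered libraries correlated at -0.093 to 0.15 (MG132 set), -0.66 to 0.23 (carfilzomib, 8 h) and -0.047 to 0.047 (carfilzomib, 24 h). Of 12 libraries 5, 0 and 5 correlated best with their own number, so no pairing by number was seen in the MG132 set or at 24 h. In the carfilzomib set at 8 h the libraries did not fall into their labelled groups, so these values cannot show whether the numbers pair the samples there. With the replicate block, the carfilzomib calls at 8 h as labelled were lost for MT1E (adjusted p = 0.091) and MTF1 (adjusted p = 0.089). MT1G and MT1M, at a few counts, are limited by depth.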
